A study of Mus musculus with 24 samples.

Results

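The response of dorsal root ganglia (DRG) to LL37 injected into the skin was measured by comparing RNA from 6 model DRG libraries with RNA from 6 control DRG libraries, which are 12 of the 24 libraries of a mouse rosacea-like inflammation series. The other 12 are skin libraries from the same design. All groups are female BALB/c mice aged 6 weeks. Model animals received intradermal LL37 at 320 µM in 40 µL, 2 times a day for 2 days, and tissue was taken on day 4. The protocol also gives oral gabapentin at 100 mg/kg from day 3, but no library label names it, so which animals received it is unstated and a part of gabapentin in the model libraries cannot be told apart from LL37. Neither the control injection, the spinal level of the ganglia nor the number of animals behind a library is stated either, and the p-values below measure the spread between these libraries, which may be partly technical. Of 45777 genes in the count table, 19509 passed the filter on low counts in DRG and were tested.

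A dorsal root ganglion holds the cell bodies of the sensory neurons that send one axon branch to skin, muscle or viscera and another to the spinal cord, together with satellite glia, Schwann cells, vessels, macrophages and a connective tissue sheath. LL37 is the active peptide cut from the human cathelicidin, an antimicrobial protein found at raised levels in rosacea skin. When a peripheral axon is damaged, sensory neurons switch on a well-described set of genes, led by the transcription factors Atf3, Jun and Sox11, followed by growth-associated proteins such as Sprr1a and Gap43 and by peptides such as galanin and neuropeptide Y, while several peptides and channels of the resting neuron decline.

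The libraries held 52273676 to 63544026 counts in the control group and 47801198 to 68396846 in the model group. Levels are given as CPM, each gene's count relative to its library's total after scaling by the trimmed mean of M-values. Summed over 13 sensory neuron markers, among them Prph, Tubb3 and Avil, levels were 14240 to 19190 CPM in control and 13230 to 17650 in model libraries, so the neuronal content of a ganglion was present in every library. Control library 5 stood apart by spinal cord RNA: 8 oligodendrocyte and spinal cord markers summed to 670 CPM there and to 84.8 to 128.5 in the other 5 controls, against 84.3 to 173 in the model group. Model library 5 stood apart by blood and marrow RNA, with 13 neutrophil markers at 726 CPM in it, and 37.2 to 202 in the control libraries. Meningeal and perineurial markers, from the sheath, summed to 452 to 824 CPM in control and 502 to 962 in model libraries, with model library 4 highest. Fewer cells of a type and less RNA per cell cannot be told apart in bulk tissue. Values without control 5 or model 5 are given below where they change a call.

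**Figure D1:**
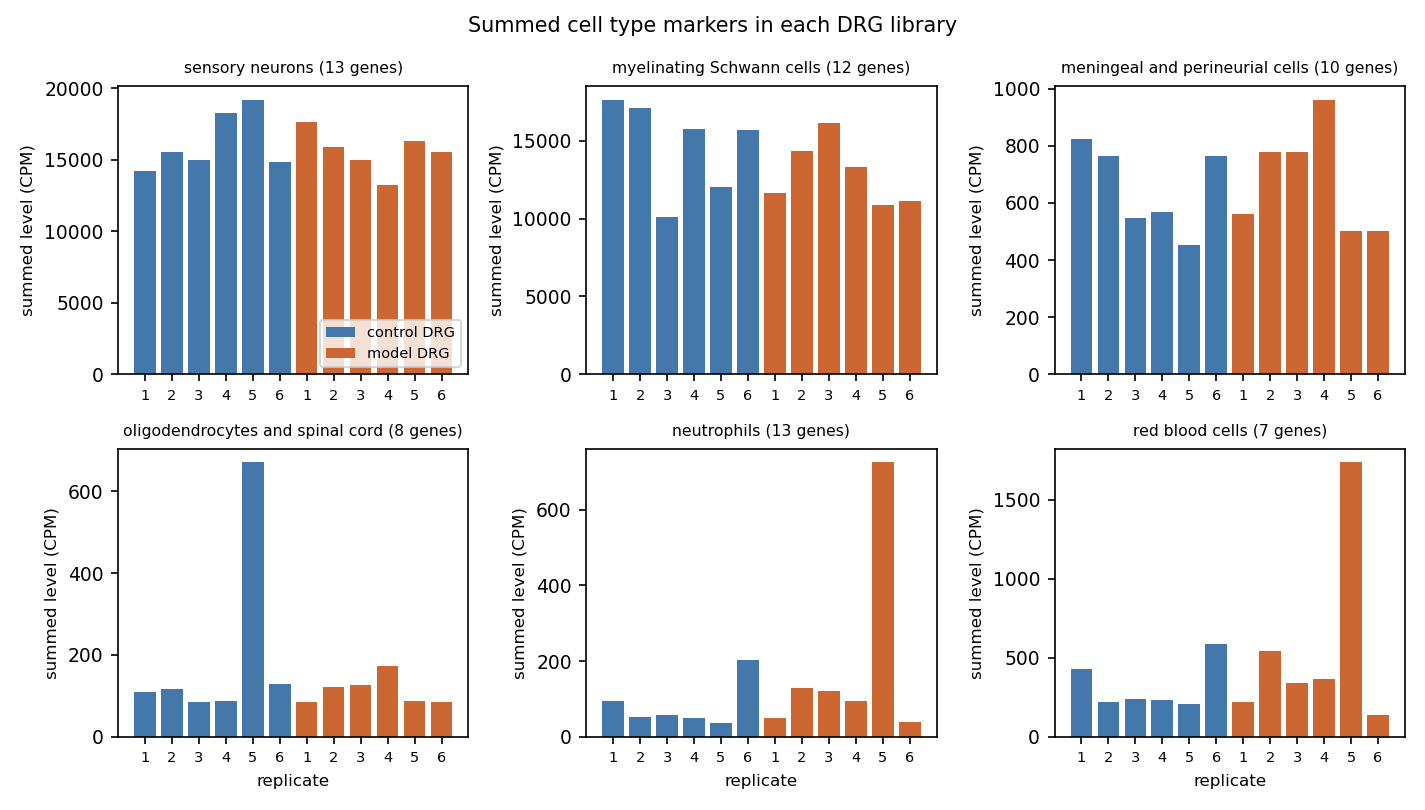
Summed level (CPM, linear axis from 0) of 6 marker lists in each of the 6 control and 6 model DRG libraries; each bar is 1 library. Control 5 is highest for spinal cord markers at 670 CPM and model 5 for neutrophil markers at 726 CPM, while the neuronal sums of the groups overlap.

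In model ganglia 19 genes rose and 0 fell (edgeR quasi-likelihood test, Benjamini-Hochberg adjusted p under 0.05), which is 0.0974% and 0% of the 19509 genes tested. At an unadjusted p under 0.05, 1093 genes (5.6%) were higher and 729 (3.74%) were lower, 9.34% of genes in either direction. DESeq2 called 125 higher and 14 lower, and the 19 were among the 125. Of the 19, 18 had all 6 model libraries above all 6 control libraries, a separation seen in 74 of all genes tested (0.379%), and the reverse separation was seen in 29 (0.149%). The 18 described here include, by known function, transcription and stress factors (Atf3, Sox11, Gadd45a), membrane and cytoskeletal proteins of growing axons (Sprr1a, Flrt3, Sema6a, Myo10) and secreted factors (Gal, Fst). The others are Gpr151, an orphan receptor, and genes of low abundance in ganglion (Lipn, Kcnk16, Gm5152, Cd207, Krtdap, Star, Slc6a4, Tnfrsf8).

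**Figure D2:**
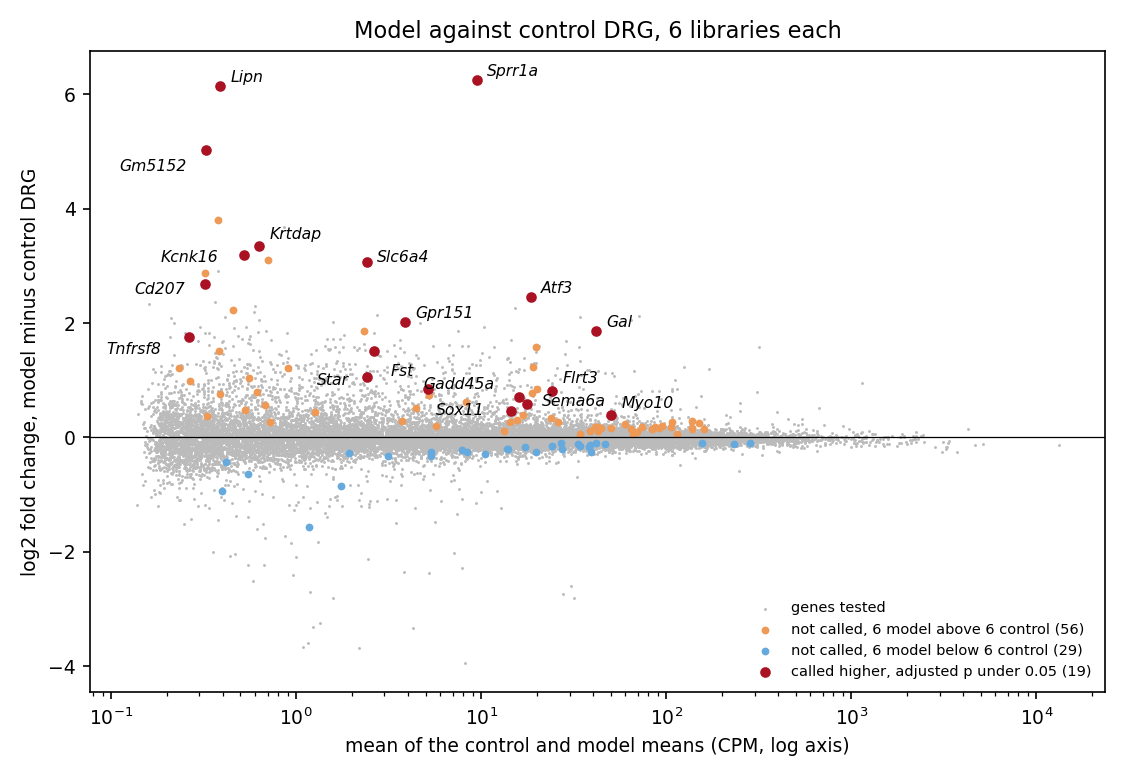
Each point is 1 of 19509 genes tested, with the mean of the control and model means on the x axis (CPM, log axis) and the log2 fold change, model minus control, on the y axis. The 19 called genes (red) all lie above 0, the 56 uncalled genes with all model libraries higher (orange) and the 29 with all model libraries lower (blue) lie mostly close to 0.

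Atf3, a leucine zipper transcription factor that is scarce in intact sensory neurons and induced by axon damage, had the smallest p in the ganglion. Its level was 4.19, 6.02 and 6.88 CPM at the lowest, median and highest control library and 24.1, 31.3 and 38.9 CPM in the model libraries. The lowest model library was above the highest control, and the gap between the groups was wider than the range within either. The mean went from 5.71 ± 1.11 to 31.3 ± 4.78 CPM (SD, n = 6 each), a log2 fold change of 2.46 (95% confidence interval 2.16 to 2.75, edgeR adjusted p = 1.62e-06). The gene (ID 11910) lies on chromosome 1 from 191170296 to 191183333 of GRCm38.

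Sox11, a SoxC-family factor of developing and regenerating neurons, rose less. Its control libraries lay at 10.5, 11.7 and 14.01 CPM and its model libraries at 15.7, 16.5 and 18.9 CPM (lowest, median, highest), without overlap. The log2 fold change was 0.47 (0.30 to 0.64, edgeR adjusted p = 0.0407), and the call held in 2 of the 12 fits that leave out 1 library (without control 3 or 5). Sox11 did not pass in the fit of all 24 libraries (edgeR adjusted p = 0.914) or without control 5 and model 5 (0.106). Gadd45a, a stress-induced gene with roles in DNA demethylation and growth arrest, rose from 11.1, 12.3 and 13.2 to 16.8, 19.8 and 22.6 CPM, a log2 change of 0.70 (edgeR adjusted p = 0.000547) with no overlap between groups and with the call kept in all 12 such fits. An overlapping predicted gene, E230016M11Rik, shares the Gadd45a locus, and whether the counting used strand is unstated.

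Of the 14 injury transcription factors in the list used here, 2 were called, against 0.0974% of all genes, and their median log2 change was 0.09 against -0.01 over all genes tested. All 14 lay above 0, between 0.02 and 2.46. This list and those below were chosen with earlier results of these data known, so counts of calls in them are no test of the lists. Jun, the AP-1 subunit that pairs with Atf3, was 62.3 CPM in control and 65.9 in model libraries (log2 0.08, edgeR adjusted p = 0.75). Klf6 was 69.0 and 79.7 CPM (log2 0.21, adjusted p = 0.521). Neither Jun nor Klf6 separated the groups.

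Sprr1a, a small proline-rich protein of the cornified envelope that is also made by regenerating sensory neurons, had the largest fitted log2 change among genes that passed. The control libraries held 0.0775, 0.148 and 0.497 CPM and the model libraries 5.10, 22.2 and 23.8 CPM (lowest, median, highest). Model library 6 was the one at 5.10 CPM, and the other 5 lay between 14.6 and 23.8 CPM. The log2 fold change was 6.25 (5.14 to 7.37, edgeR adjusted p = 0.00032), from a mean of 0.241 ± 0.186 to 18.6 ± 7.46 CPM (SD, n = 6 each), and between 6.08 and 6.56 with any 1 library left out. The gene (ID 20753) lies on chromosome 3 from 92483954 to 92485881 of GRCm38.

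Gpr151, an orphan receptor of nociceptors that is induced by nerve injury, was at 1.16, 1.58 and 1.79 CPM in control libraries and at 3.50, 5.93 and 9.15 CPM in model libraries. The lowest model library lay above the highest control, and the log2 change was 2.02 (1.62 to 2.43, edgeR adjusted p = 0.00032). Flrt3, a leucine-rich repeat membrane protein of axon guidance, was at 15.2, 17.4 and 20.4 CPM in control libraries and at 25.99, 30.2 and 35.7 CPM in model libraries, again apart (log2 0.81, adjusted p = 0.00176). It overlaps Macrod2 in the annotation, so a share of its reads may belong there. Sema6a, a transmembrane semaphorin, rose from a mean of 14.2 to 21.3 CPM (log2 0.59, edgeR adjusted p = 0.0121) and lost its call without control 1 or control 4, where the adjusted p reached 0.0531, and narrowly in the fit of all 24 libraries (0.0513) and with transcript length as an offset (0.0535). Myo10, the unconventional myosin of filopodia, showed the smallest change of the 19: 41.1, 43.7 and 45.4 CPM in control and 49.5, 58.1 and 61.2 CPM in model libraries (log2 0.40, edgeR adjusted p = 0.00553), with every model library higher. Myo10 lost its call with length as an offset (log2 0.34, adjusted p = 0.0675) and in the fit of all 24 libraries (adjusted p = 0.393), and Flrt3 in the latter (0.136).

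Counting Gadd45a, Gpr151, Sprr1a, Flrt3 and Sema6a, 5 of the 22 tested axon growth and regeneration genes were called, against 0.0974% of all genes, and 7 were higher at an unadjusted p under 0.05, against 5.6%, with a list median of 0.15. Gap43, the membrane protein of growth cones, was already abundant at 168 CPM in control and was 170 CPM in model libraries (log2 0.02, edgeR adjusted p = 0.951). Lmo7, a LIM-domain protein, was 10.6 and 16.0 CPM (log2 0.60, edgeR adjusted p = 0.237), and DESeq2 called it. The 2 genes differ in that the Gap43 groups coincide while the Lmo7 means lie further apart with overlapping libraries.

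Gal, which encodes the neuropeptide galanin, was the most abundant called gene in model ganglia per transcript length, at 212 TPM (the authors' length-scaled values) against 56.3 in control. In CPM the control libraries lay at 14.5, 16.6 and 25.2 and the model libraries at 30.8, 70.8 and 83.0 (lowest, median, highest). Model library 6 was the lowest of the model group and still above control 5, the highest control. The mean went from 17.97 ± 3.86 to 65.3 ± 18.8 CPM (SD, n = 6 each), a log2 fold change of 1.86 (1.39 to 2.33, edgeR adjusted p = 0.00335). It stayed between 1.77 and 2.01 with any 1 library left out. Gal (ID 14419) lies on chromosome 19 from 3409915 to 3414544 of GRCm38.

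Fst, follistatin, a secreted binder of activins, was at 2.96, 3.72 and 4.27 CPM in control libraries and at 5.38, 6.68 and 7.84 CPM in model libraries, apart in all 12 (log2 0.86, edgeR adjusted p = 0.0036). Inhbb, which encodes an activin subunit, was at 2.91, 3.77 and 5.27 CPM in control libraries and at 5.32, 6.61 and 7.72 CPM in model libraries, narrowly apart, and did not pass (log2 0.75, edgeR adjusted p = 0.0741). Without control 5, Inhbb passed (log2 0.86, edgeR adjusted p = 0.00579).

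Other secreted factors of the injury list lay higher in the model libraries without passing, and several passed when control 5 was left out. Nts, neurotensin, was at 5.12, 6.41 and 8.27 CPM in control libraries and at 9.33, 9.90 and 11.2 CPM in model libraries, which do not overlap (log2 0.62, edgeR adjusted p = 0.0777, and 0.0116 without control 5). Fgf3, a fibroblast growth factor, was at 0 to 0.205 CPM in control and 0.358 to 1.10 CPM in model libraries (edgeR adjusted p = 0.0777, and 0.00282 without control 5). Npy, neuropeptide Y, was at 0.928 to 3.66 CPM in the model group, at 0.076 to 0.284 in 5 controls and at 3.82 in control 5. With all libraries its log2 change was 1.72 (edgeR adjusted p = 0.555) and without control 5 it was 3.77 (adjusted p = 0.00163). Control 5 is the library with spinal cord RNA, a tissue that also makes Npy; the part of that RNA in the Npy value was not tested. Csf1, the macrophage growth factor released by injured neurons, was 15.4 and 21.7 CPM (log2 0.49, edgeR adjusted p = 0.194, and 0.0143 without model 6). For Inhbb and the genes of this paragraph, the fit quoted without 1 library is a fit in which the gene passed. The other such fits are not given. Of the 13 secreted factors and peptides tested, 2 were called (Gal and Fst, against 0.0974% of all genes), 6 were higher and 1 lower at an unadjusted p under 0.05 (against 5.6% and 3.74%), and their median was 0.75. DESeq2 called 7 of the list, adding Csf1, Fgf3, Inhbb, Nts and Il24, the last with 0 counts in the control group, 57 in the model group and too few for the main filter.

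The other called genes were of low abundance. Lipn, a lipase of the epidermis, had 3 counts over the 6 control libraries and 272 over the 6 model libraries, a ratio of 91.5 with a 95% interval of 31 to 446.7 that covers counting error only (edgeR adjusted p = 0.000644). The control reads came from control 4 alone and model 6 was again the lowest model library, at 0.232 CPM. Krtdap, a secreted keratinocyte protein, was at 0, 0.138 and 0.166 CPM in control libraries and at 0.337, 1.14 and 2.42 CPM in model libraries, with model 4 highest (log2 3.36, edgeR adjusted p = 0.0292). Cd207, langerin, the receptor of Langerhans cells, was at 0, 0.101 and 0.117 CPM and 0.396, 0.539 and 0.776 CPM (log2 2.69, edgeR adjusted p = 0.0152). All 3 are known from epidermis, and each separated the groups.

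Keratinocyte markers were far below their skin levels in these ganglia. Krt5 was at most 0.0471 CPM in control and 0.0590 in model libraries, and Krt14 at most 0.237 and 0.265, whereas the control skin means were 5611 and 3927 CPM. Flg had 0 counts in both DRG groups. Of 12 keratinocyte markers 7 were tested and 0 called by edgeR or DESeq2, with 1 higher at an unadjusted p under 0.05, and their sums were 7.15 to 9.17 CPM in control and 7.32 to 13.6 in model libraries. Krt10 was at 1.42 to 2.52 CPM, Sfn at 2.04 to 3.16 and Trp63 at 0.938 to 1.66 CPM over all 12 libraries. Dsp, desmoplakin, was 1.10 CPM in control and 3.26 in model libraries, up to 7.26 CPM (log2 1.56, edgeR adjusted p = 0.433), and was the marker with an unadjusted p under 0.05. The part of epidermal RNA in the values of Lipn, Krtdap and Cd207 was not tested.

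Kcnk16, a 2-pore-domain potassium channel, was at 0.0334, 0.102 and 0.158 CPM in control libraries and at 0.591, 0.997 and 1.249 CPM in model libraries, apart in all 12 (log2 3.19, edgeR adjusted p = 0.000547). Gm5152, annotated as a pseudogene, was at 0 to 0.076 CPM and 0.464 to 1.04 CPM (edgeR adjusted p = 0.00176). Slc6a4, the serotonin transporter, was at 0.095, 0.504 and 0.919 CPM in control libraries and at 1.31, 3.91 and 8.17 CPM in model libraries, a wide but separate range (log2 3.06, edgeR adjusted p = 0.0281). Star, which carries cholesterol into mitochondria, was at 1.22 to 1.85 CPM and 2.13 to 4.12 CPM (log2 1.06, adjusted p = 0.0215). Tnfrsf8, the CD30 receptor, was at 0.0552 to 0.189 CPM and 0.270 to 0.540 CPM (log2 1.75, adjusted p = 0.0489). With 1 library left out in turn, Kcnk16, Gm5152 and Lipn passed in 12 of 12 fits, Cd207 in 7 (lost without control 1, 2 or 4 or model 2 or 3), Star in 4 (without control 5 or 6 or model 4 or 6), Slc6a4 in 4 (without control 2 or 3 or model 5 or 6), Krtdap in 4 (without control 2 or model 4, 5 or 6) and Tnfrsf8 in 1 (without control 5). Without control 5 and model 5 together the adjusted p was 0.121 for Slc6a4, 0.0679 for Krtdap and 0.0696 for Tnfrsf8. Kcnk16 did not pass in the fit of all 24 libraries, with the same log2 change of 3.19 (adjusted p = 0.666), nor did Tnfrsf8 (0.0782). The highest adjusted p in those fits was 0.0647 for Cd207, 0.0916 for Star, 0.119 for Slc6a4, 0.124 for Krtdap and 0.181 for Tnfrsf8.

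Il22ra1, a receptor chain for interleukin 22 family cytokines, lay just outside the threshold at 0.144 ± 0.0449 and 1.26 ± 1.17 CPM (SD, n = 6 each, edgeR adjusted p = 0.0565), with no overlap and with 3.50 CPM in model 4. Next came Rhoq and Inhbb at 0.0741, Fgf3 and Nts at 0.0777 and the clock gene Arntl at 0.0816. Tnfrsf8 was among the last genes inside, at 0.0489.

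Across the 19 called genes the model libraries did not respond alike. Model 6 was the lowest of the model group in 13 genes, among them Sprr1a, Gal, Gpr151 and Slc6a4, and the highest in 2, Flrt3 and Sox11. Model 3 was highest in 7 and model 5 in 6. Atf3 was lowest in model 4, not in model 6. Leaving model 6 out raised the number of called genes to 34 higher and 2 lower, and leaving out control 1 or control 4 lowered it to 11 higher. Atf3, Gal, Sprr1a and Gpr151 passed in every alternative fit of the ganglion.

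**Figure D3:**
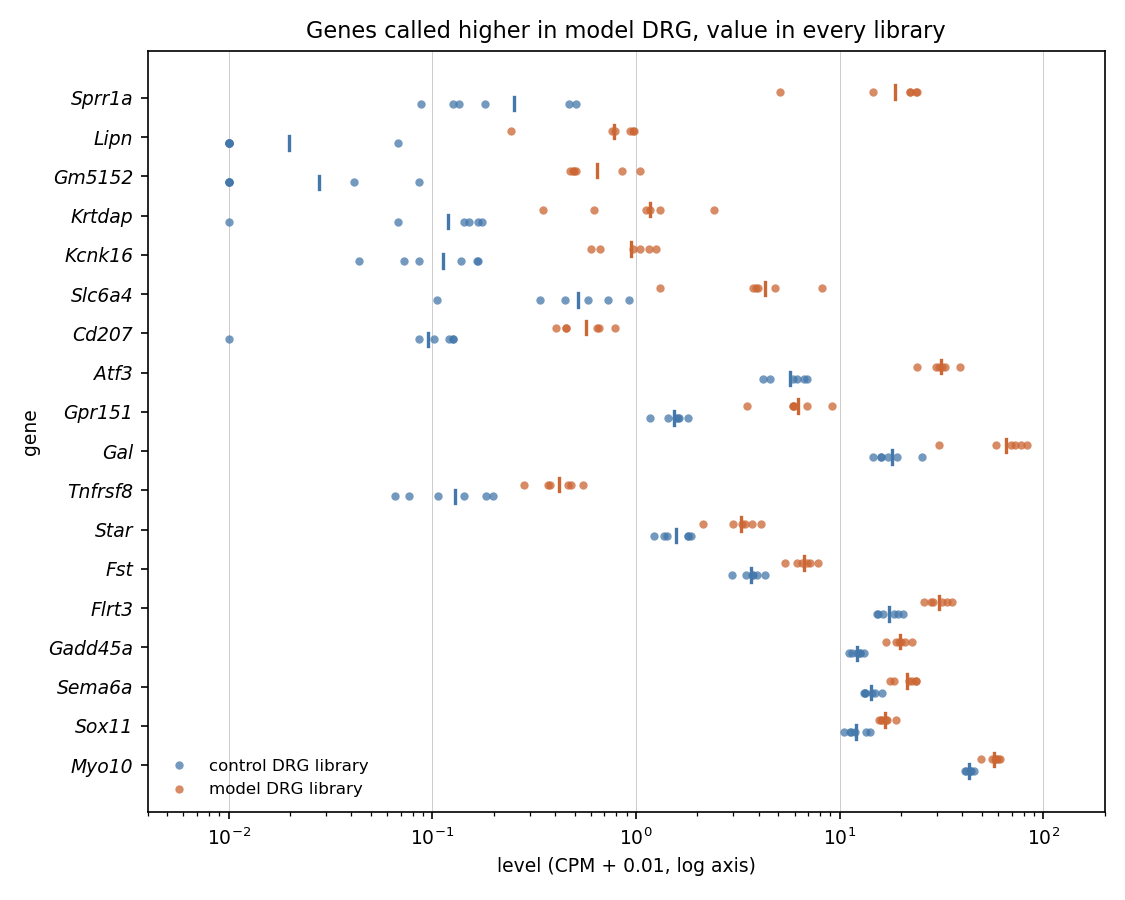
Level of 18 called genes in every DRG library (CPM + 0.01, log axis); each point is 1 library and each bar the group mean. The control and model points are apart for all 18 genes shown, and model library 6 gives the lowest model point for Sprr1a, at 5.10 CPM.

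Start-site sequence was examined because Atf3 and its partner Jun belong to the families that bind the AP-1 motif. RefSeq windows of 250 bases before and 50 after the start (GRCm38.p6) were available for 13 of the 19 called genes and 14271 of the genes tested. The AP-1 motif TGANTCA, searched on both strands, was in 5 of the 13 windows (38.5%) and in 969 of all 14271 (6.79%). The cyclic AMP response element TGACGTCA was in 0 of the 13 and in 3.03% of all. Among genes that were not called but separated the groups, TGANTCA was in 6 of 39 windows of those higher in model ganglia (15.4%) and 1 of 24 of those lower (4.17%). The bases after the start open an annotated GENCODE transcript of the gene in 9 of the 13 windows, including the 5 with a match. These are letter matches, with no measure of binding. The 250 bases before the start are printed 5′ to 3′ for 4 genes with a match, whose TGANTCA matches are in capitals, and for Atf3, which has none in its window.
Sprr1a, chr3:92485882-92486131, minus strand: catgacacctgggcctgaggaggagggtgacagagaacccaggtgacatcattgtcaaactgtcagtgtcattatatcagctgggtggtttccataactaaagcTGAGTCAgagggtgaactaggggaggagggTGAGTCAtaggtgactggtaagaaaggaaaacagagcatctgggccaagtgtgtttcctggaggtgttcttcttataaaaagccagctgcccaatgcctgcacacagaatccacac
Krtdap, chr7:30787655-30787904, plus strand: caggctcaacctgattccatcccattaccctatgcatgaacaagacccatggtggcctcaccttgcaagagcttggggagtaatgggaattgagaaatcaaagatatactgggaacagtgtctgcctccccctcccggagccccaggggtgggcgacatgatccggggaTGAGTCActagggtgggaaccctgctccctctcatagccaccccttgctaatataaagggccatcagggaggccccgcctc
Cd207, chr6:83677858-83678107, minus strand: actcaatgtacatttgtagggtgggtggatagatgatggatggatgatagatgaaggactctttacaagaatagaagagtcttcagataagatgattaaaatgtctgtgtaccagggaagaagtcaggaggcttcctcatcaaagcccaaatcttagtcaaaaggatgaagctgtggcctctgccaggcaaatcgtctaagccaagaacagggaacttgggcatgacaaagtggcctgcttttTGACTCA
Tnfrsf8, chr4:145315165-145315414, minus strand: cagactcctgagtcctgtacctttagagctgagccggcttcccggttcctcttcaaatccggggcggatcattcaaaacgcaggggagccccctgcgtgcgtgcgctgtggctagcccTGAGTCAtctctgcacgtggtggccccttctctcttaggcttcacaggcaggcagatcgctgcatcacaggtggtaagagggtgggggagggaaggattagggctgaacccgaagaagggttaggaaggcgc
Atf3, chr1:191183334-191183583, minus strand: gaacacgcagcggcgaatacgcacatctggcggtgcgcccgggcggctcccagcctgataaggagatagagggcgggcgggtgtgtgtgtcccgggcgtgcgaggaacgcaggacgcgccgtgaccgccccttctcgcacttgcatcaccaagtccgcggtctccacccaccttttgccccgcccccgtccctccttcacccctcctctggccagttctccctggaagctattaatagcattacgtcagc

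Sprr1a carries 2 matches, whose first bases lie 146 and 116 bases before the start. Krtdap carries its match at 81 bases, Cd207 at 7 and Tnfrsf8 at 132 bases before the start. Lipn, the other gene with a match, has it at 148 bases, but its annotated gene span begins upstream of that window, so the window may not be the start its ganglion transcripts use. The match was TGACTCA in Cd207 and TGAGTCA, its reverse complement, in the other 4. Gal, Gadd45a and Flrt3 had windows without a match.

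Resting-state products of the sensory neuron showed no called change. Over all genes tested, edgeR called 0.0974% higher and 0% lower, so 0 calls in this list or those below lies near that share. For the sensory neuropeptides, 0 of 12 tested were called by edgeR or DESeq2. At an unadjusted p under 0.05, 0 were higher and 4 lower, against 5.6% and 3.74% of all genes. The 4 were Nmb, at 96.0 and 85.3 CPM (log2 -0.17, edgeR adjusted p = 0.475) with overlapping groups, and Nmu, Sst and Pdyn. The list median was -0.22 (-0.16 without control 5 and model 5). Calca, the precursor of calcitonin gene-related peptide, was at 1017, 1199 and 1389 CPM in control libraries and at 888, 1103 and 1190 CPM in model libraries (log2 -0.16, edgeR adjusted p = 0.573). Tac1, the substance P precursor, was 183 and 167 CPM (log2 -0.13, adjusted p = 0.762). Adcyap1, which encodes PACAP, was 92.6 and 98.3 CPM (log2 0.09, adjusted p = 0.832). The groups overlapped for Calca, Tac1 and Adcyap1. Sst and Pdyn were highest in control 5, at 32.3 and 13.7 CPM, against 5.42 to 7.53 and 0.129 to 0.251 in the other controls. Both are also products of spinal cord neurons. Nmu was highest in control 5 too, at 1.36 CPM against 0.1255 to 0.285 in the other controls. The part of spinal cord RNA in these values was not tested.

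Among channels, 0 of 18 sensory transduction, 0 of 11 sodium, 0 of 19 potassium and HCN and 0 of 17 calcium channel genes were called by edgeR or DESeq2. These counts lie near the 0.0974% of all genes that edgeR called. At an unadjusted p under 0.05 there was 1 transduction channel gene, against 9.34% of all genes. Median log2 changes lay between -0.03 and 0.03 in these lists. On the TPM scale they lay between 0.02 and 0.08, where the median of all genes went from -0.01 to 0.04. Trpv1, the capsaicin and heat channel, was at 119, 138 and 157 CPM in control libraries and at 99.2, 141 and 158 CPM in model libraries, with a 95% interval for the log2 change of -0.25 to 0.20 (edgeR adjusted p = 0.957). Trpa1, the irritant channel, was 112 and 108 CPM (log2 -0.06, adjusted p = 0.905), above 0 when control 3 or model 2 was left out. Ano1, a calcium-activated chloride channel, was 12.3 and 14.5 CPM (log2 0.23, adjusted p = 0.463).

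Scn10a, the nociceptor sodium channel Nav1.8, averaged 1164 CPM in control and 1159 CPM in model libraries, with an interval of -0.12 to 0.11 (edgeR adjusted p = 0.984). Scn9a, Nav1.7, was 554 and 550 CPM. Kcna1, a Kv1 channel, was 590 and 649 CPM (log2 0.14, edgeR adjusted p = 0.539). Cacna2d1, the alpha2delta subunit to which gabapentin binds, was at 224, 295 and 364 CPM in control libraries and at 277, 301 and 339 CPM in model libraries (log2 0.06, interval -0.15 to 0.28, edgeR adjusted p = 0.877). Control and model ranges overlapped for all of these channels.

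Itch receptors gave 0 of 16 called by edgeR or DESeq2 and 0 at an unadjusted p under 0.05 in either direction. Mrgpra3, the chloroquine receptor of itch neurons, was 24.9 and 22.6 CPM (log2 -0.14, edgeR adjusted p = 0.594). A relative, Mrgpra2a, had all 6 model libraries (7.28 to 7.91 CPM) below all 6 control libraries (8.20 to 9.79 CPM) but did not pass (log2 -0.26, edgeR adjusted p = 0.254), although DESeq2 called it. Members of this receptor family are near-identical in sequence, so the split of reads between them is uncertain. Of 14 neuropeptide receptors and 17 GABA and glutamate receptors, 0 were called by edgeR or DESeq2, with 1 neuropeptide receptor higher and 1 lower and 2 GABA or glutamate receptors lower at an unadjusted p under 0.05. The lower neuropeptide receptor was Adcyap1r1, at 39.8 CPM in control 5 and 4.32 to 4.98 in the other controls. Grin2b, a glutamate receptor, ranged from 0.152 to 11.4 CPM in control and from 0.116 to 0.295 in model libraries. The part of spinal cord RNA in these values was not tested.

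Inflammatory gene groups were likewise without a call in edgeR, near the 0.0974% called over all genes. Of 25 interferon-stimulated genes 4 were higher and 0 lower at an unadjusted p under 0.05, against 5.6% and 3.74% of all genes. In this list 21 lay above 0, where 8891 of all 19509 genes did. The list median was 0.19, and 0.13 without control 5 and model 5. Stat2, an interferon signalling factor, was at 57.2, 59.4 and 66.1 CPM in control libraries and at 62.1, 66.2 and 70.2 CPM in model libraries, overlapping (log2 0.14, edgeR adjusted p = 0.46). Of 16 tested cytokines and chemokines out of 24, 4 were higher at an unadjusted p under 0.05, namely Csf1, Tgfb1 at 3.96 and 5.86 CPM (edgeR adjusted p = 0.479), Il6 at 0.212 and 0.377 CPM (adjusted p = 0.50) and Cxcl9 at 0.229 and 0.342 CPM (adjusted p = 0.529), and DESeq2 called Csf1. Il1b was at 0.281 and 0.395 CPM (edgeR adjusted p = 0.777), highest in model 5 at 0.805 CPM. Tlr2, a sensor of bacterial lipoproteins, was 1.27 and 1.38 CPM (log2 0.13, edgeR adjusted p = 0.893). Of 17 innate sensing genes 1 was higher at an unadjusted p under 0.05, and 0 of 25 interferon-stimulated and 0 of 17 innate sensing genes were called by DESeq2.

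Neurotrophic factors and receptors gave 0 of 16 called by edgeR, 2 higher at an unadjusted p under 0.05, and 1 called by DESeq2. Il6st, the shared receptor chain of interleukin 6 and its relatives, was 490 and 537 CPM (log2 0.13, edgeR adjusted p = 0.519). Of 16 circadian clock genes Arntl came closest, at 5.71 and 8.74 CPM (log2 0.62, edgeR adjusted p = 0.0816). It passed without control 2 (edgeR adjusted p = 0.0149), its highest control library at 7.54 CPM. The other fits that leave out 1 library are not given for it, and DESeq2 called Arntl. The hour of collection is unstated.

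Immediate early genes, which mark recent neuronal activity, gave no call: 0 of 16 were called by edgeR or DESeq2, with 1 higher and 2 lower at an unadjusted p under 0.05. Fos was 9.85 and 5.28 CPM (log2 -0.90, edgeR adjusted p = 0.491) and Fosb 2.45 and 1.06 CPM, with control 4 at 6.32 CPM. Nuclear oxidative phosphorylation genes lay below 0 in 20 of 20, where 10618 of all 19509 genes did, with a median of -0.13 (-0.07 on the TPM scale and -0.07 without control 5 and model 5), 5 of them at an unadjusted p under 0.05 and 0 called by edgeR or DESeq2. Their median transcript, 1382.5 bases, is among the short ones, a class with a median of -0.08 in which 21.8% of genes lay above 0. Uqcrc2, a complex III subunit, was 181 and 165 CPM (log2 -0.14, edgeR adjusted p = 0.46) and Cox6c, a complex IV subunit, 142 and 125 CPM (log2 -0.18, adjusted p = 0.466). Proliferation genes had a median of 0.47 with all libraries and -0.09 without control 5 and model 5, and 0 of 15 were called by edgeR or DESeq2 or had an unadjusted p under 0.05. Of the 25 response lists, 22 held no gene called by edgeR, and the 3 that did were the injury transcription factors, the secreted factors and the axon growth genes. List members were chosen with earlier results of these data known, so this split carries no test.

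**Figure D4:**
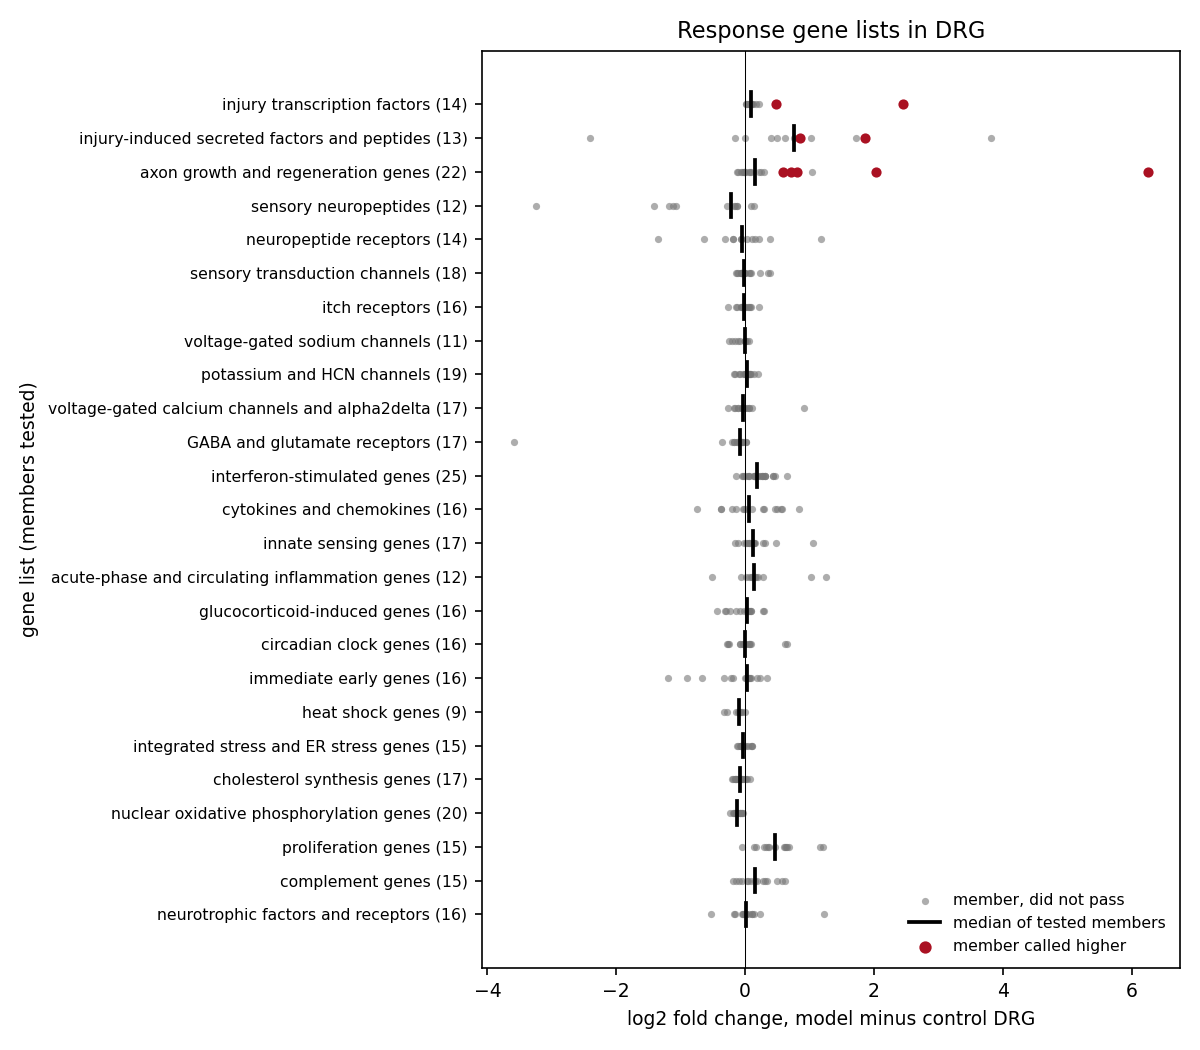
Log2 fold change, model minus control DRG, of every tested member of the 25 response lists (points), with the list median (black bar) and called members in red. All 9 red points lie in the top 3 lists, and Sprr1a is the one at 6.25.

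None of the 26 cell type marker lists held a gene called by edgeR. Medians away from that of all genes (-0.01) were seen in several. Adipocyte markers had a median of 0.72 (0.79 without control 5 and model 5), with 9 of 9 above 0, 5 higher at an unadjusted p under 0.05 and sums of 7.05 to 16.8 CPM in control and 11.1 to 26.9 in model libraries. Neutrophil, B cell and red blood cell markers had medians of 1.18, 1.16 and 0.84, and of -0.02, 0.25 and -0.05 without control 5 and model 5. Spinal cord markers had a median of -0.71, and -0.22 without those libraries. The meningeal and perineurial list had a median of 0.79, with 4 of 10 genes higher at an unadjusted p under 0.05, and DESeq2 called Slc47a1 in it. Slc47a1, an organic cation exporter of the leptomeninges, was at 7.05, 10.4 and 22.6 CPM in control libraries and at 16.1, 49.2 and 119 CPM in model libraries (log2 2.12, edgeR adjusted p = 0.254). Slc26a7, an anion exchanger, separated the groups at 6.31 to 14.3 and 14.7 to 58.3 CPM (log2 1.59, adjusted p = 0.254). Fn1, fibronectin, was 158 and 475 CPM (log2 1.59, edgeR adjusted p = 0.433) and Msln, mesothelin, 5.25 and 25.2 CPM (log2 2.26, adjusted p = 0.295); DESeq2 called Msln and Upk1b among 7 mesothelial markers. Model library 4 was the highest for all 4 genes, and the ranges of Slc47a1, Fn1 and Msln overlapped between groups. In a fit with the summed meningeal marker level as a covariate, all 19 called genes stayed called and 61 were added (80 higher). Among those added were Il22ra1, Inhbb, Nts, Rhoq, Plxna2 and Slc26a7. The summed level had a median of 665 CPM in control and 669 CPM in model libraries, so it carried little of the difference between groups. Ogn alone held 267 to 598 CPM of it in control libraries. The part of sheath RNA in the called genes was not tested.

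Beyond the called genes, small shifts separated the groups. There were 56 uncalled genes with all 6 model libraries above all 6 controls, with a median log2 change of 0.28, and 31 of them changed by less than 0.3. There were 29 with all model libraries below, with a median size of 0.21, of which 22 were under 0.3. These shifts are not calls. How many genes would separate by chance was not tested, so they are not shown to be a response to the model. Called genes included, 74 were higher and 29 lower in CPM (0.379% and 0.149% of genes tested). The counts were 146 and 11 on the TPM scale, which moves the median of all genes upward. Without control 5 and model 5 they were 212 and 140, but 5 libraries a group separate more easily than 6.

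Rhoq, a small GTPase of membrane trafficking and neurite outgrowth, was the shift with the smallest p at moderate abundance. It was at 108, 124 and 136 CPM in control libraries and at 143, 153 and 157 CPM in model libraries, so that the highest control lay below the lowest model library (log2 0.30, edgeR adjusted p = 0.0741). It shares its locus with Pigf. Plxna2, a semaphorin receptor, was at 123, 136 and 152 CPM and 156, 163 and 171 CPM (log2 0.25, edgeR adjusted p = 0.116). Dock5, a Rac activator, was 96.9 and 117 CPM (log2 0.27, adjusted p = 0.138), and Pfkfb4, an enzyme that sets glycolytic flux, 23.5 and 28.2 CPM (log2 0.27, adjusted p = 0.177). Gab2, a docking protein of receptor tyrosine kinases, was at 39.5 to 43.2 CPM in control and 46.5 to 49.5 CPM in model libraries (log2 0.17, edgeR adjusted p = 0.247). These 5 genes were picked because their groups did not overlap. For Rhoq, Plxna2, Dock5 and Pfkfb4 the gap was narrower than the range within the groups. None of the 5 passed in edgeR, while DESeq2 called all 5 (adjusted p from 0.00035 for Rhoq to 0.00698 for Pfkfb4) and limma on log2(TPM + 1) called Rhoq and Plxna2 (adjusted p = 0.0489 and 0.0404). Npcd was 14.2 and 25.6 CPM (log2 0.85, edgeR adjusted p = 0.103) and overlaps Nptxr and Cbx6, so its counts are uncertain; DESeq2 called it too.

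The downward shifts were smaller. Arxes2, an adipocyte-related membrane protein, was at 38.2, 42.9 and 45.5 CPM in control libraries and at 33.7, 35.7 and 37.6 CPM in model libraries (log2 -0.25, edgeR adjusted p = 0.254). Mthfd2l, a mitochondrial folate enzyme, was at 10.7 to 12.2 CPM and 8.01 to 10.4 CPM (log2 -0.29, adjusted p = 0.254). Aimp1, a scaffold of the aminoacyl-tRNA synthetase complex, was at 39.3 to 41.1 CPM and 33.1 to 38.6 CPM (log2 -0.17, edgeR adjusted p = 0.295). It overlaps Tbck. Mrpl32, a mitochondrial ribosomal protein, was 15.03 and 13.0 CPM (log2 -0.21, edgeR adjusted p = 0.353), and Rpl15, a cytosolic ribosomal protein, was 162 and 151 CPM (log2 -0.10, adjusted p = 0.468). All 5 were picked because the highest model library lay below the lowest control, so that separation is no added evidence. DESeq2, on the same counts, called Arxes2, Mthfd2l and Aimp1.

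The direction of small shifts moved with transcript length. Protein-coding genes with at least 1 CPM in both groups were split by length into 5 groups of 2740. The median log2 change was -0.08 in the shortest group (216 to 1889 bases), -0.03, -0.01 and 0.01 in the next 3 and 0.04 in the longest (5279 to 123179 bases), and the share of genes above 0 went from 21.8% to 67.9%. Of separated genes, 13 of the downward and 5 of the upward lay in the shortest group, and 1 and 21 in the longest. The median transcript was 5224 bases long for the 39 upward shifts, 1733 for the 23 downward shifts, 3011 for the 11 called genes and 3278 over all 13700. The same longest-minus-shortest difference taken in each library ran from -0.15 to 0.17 in control and from 0.005 to 0.15 in model libraries, so the groups overlap, with controls 4, 5 and 6 below 0 and no model library below 0. With length taken out as an offset, 15 genes were called higher and 0 lower, and 70 and 18 genes separated the groups. The part of length in the shift of any one gene was not tested.

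**Figure D5:**
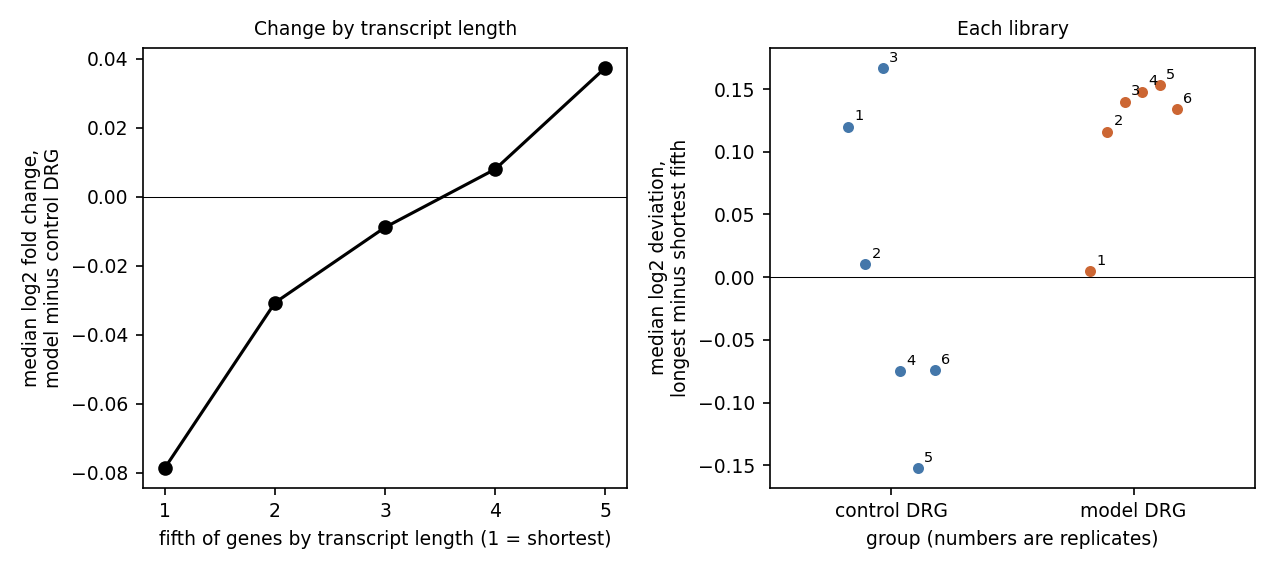
Left, median log2 fold change of model against control DRG in each of 5 groups of 2740 genes ordered by transcript length; right, the difference between the longest and the shortest group in each library (1 point each, numbered by replicate). The median climbs from -0.08 to 0.04, controls 1 and 2 lie within the model range and control 3 above it.

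The ganglion response differed from that of injected skin. In skin 2755 genes (14.1%) rose and 1137 (5.82%) fell under the same threshold. In a fit of all 24 libraries, the skin effect lay above the DRG effect in 1832 of 17251 genes (10.6%) and below it in 1110 (6.43%), a count that was 654 with scaling within each tissue. Of the 19 genes called in DRG, 17 could be tested, and the 2 effects differed in 14. These genes were picked by their DRG change in the same libraries, which favours a gap from skin. In skin Sprr1a was 1827 CPM (control) and 1173 CPM (model), and its skin log2 change was 6.94 units below that in DRG (edgeR adjusted p = 4.3e-07). Krtdap was 518.5 and 491.7 CPM in skin, and its effect differed by -3.45. Sox11 rose in skin from 0.220 to 2.72 CPM, a larger log2 change than in DRG (difference 3.11, edgeR adjusted p = 1.7e-05). Flrt3 fell in skin from 198.7 to 109.4 CPM, while it rose in DRG (difference -1.72, edgeR adjusted p = 0.00024). Gal in skin was 0.0415 CPM (control) and 1.77 CPM (model), a larger log2 change than in DRG (difference 3.29, edgeR adjusted p = 0.00471) at a far lower level. Atf3 rose in skin too, from 7.47 to 22.5 CPM, and its effects did not differ at the threshold (difference -0.92, edgeR adjusted p = 0.0579). Tnfrsf8 did not differ at the threshold either (edgeR adjusted p = 0.607), and Gpr151 and Gm5152 were too low in skin to be tested.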

How the data were processed

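Polyadenylated RNA from 6 control and 6 model DRG libraries, with the 12 skin libraries for the tissue contrast, was compared. Per the submitters' processing notes, reads went through bcl2fastq 2.20.0, Trimmomatic, HISAT2 2.1.0 and StringTie 2.1.3b, with GRCm38 (mm10) as the genome. The counting tool and its strand setting are not given in these notes. Each library has whole-number read counts, FPKM and TPM per gene in the deposited table; the authors' TPM values served for levels per length and for alternatives, and the deposited FPKM values were not used. In total 72 columns (3 for each of 24 libraries) were mapped to libraries by name.

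Counts were tested with edgeR 4.0.16 in R 4.3.3 (TMM scaling, filterByExpr, robust quasi-likelihood F test, Benjamini-Hochberg adjustment over all genes tested, threshold 0.05). The tissue contrast used 1 fit of all 24 libraries. DESeq2 1.42.0 and limma 3.58.1 on log2(TPM + 1) or log2(TPM + 0.1), other scalings, filters, a replicate block and leaving out libraries were alternatives. On simulated data for 19250 genes edgeR recovered 30% of 1.25-fold, 66% of 1.5-fold, 84% of 2-fold and 100% of 4-fold changes, with 6 of 146 calls false. The 200 changed genes, 50 for each fold, had a mean of at least 1 CPM, so recovery at lower abundance was not simulated. DESeq2 gave 27 of 182 false. Confidence intervals of log2 changes come from the edgeR fit with 95% coverage, and intervals on summed counts cover counting error only. Sequences and promoter windows are from the RefSeq tables of GRCm38.p6. Transcript lengths are those of the longest protein-coding GENCODE transcript of each gene symbol, and 97.3% of tested protein-coding genes had a length.

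The comparison, the gene lists and the named genes were chosen with earlier results of these data known, so the lists carry no test of their own. Named genes, leaving out predicted models, are called genes with at least 1 CPM in a group (the 12 smallest p and 8 largest changes), uncalled genes whose libraries do not overlap with at least 5 CPM in both groups (12 smallest p in each direction), up to 4 members per list and a fixed set of injury, peptide, channel and LL37-related genes. Lower-abundance called genes, genes just outside the threshold, Il24, Il22ra1, Lmo7 and Upk1b were named after their values were seen. A called gene among the 19 is not reported here by name. Of the list members, 47 were below the filter and 11 mitochondrially encoded ones were not analysed here. No pair of libraries within a group agreed within sampling noise (30 pairs, lowest chi-square per gene 9.32).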

Additional observations from a re-analysis of the deposited data

Results flagged for a closer look

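Values far from the rest of their group were looked for in 99 genes of the text, in 198 groups of 6 libraries, with Dixon's criterion at the 95% level. It marked 25 groups (12.6%). The criterion's rate of 1 in 20 holds for independent normal values. These are CPM values of chosen genes that can move together, so the share is not compared with chance. Control library 5 held the largest share of the high values: Npy at 3.82 CPM, Sst at 32.3, Pdyn at 13.7 and Fgf3 at 0.205 CPM, and the glial and spinal cord genes Mobp at 208, Gad1 at 41.6, Slc1a2 at 265 and Gfap at 267 CPM. The other controls held 7.40 to 32.8 CPM of Mobp, 0.817 to 1.18 of Gad1, 8.79 to 10.9 of Slc1a2 and 2.60 to 41.7 of Gfap.

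Model library 5 was high in Camp at 31.4 CPM, Cxcr2 at 2.91, Cd79b at 7.39 and Il1b at 0.805, and low in Commd5 at 11.8 CPM. Camp encodes the mouse cathelicidin of neutrophils, and its other model libraries held 1.72 to 6.16 CPM. Control library 6 was high in Cd79b at 1.85 CPM and low in Pcnx at 94.98 and Cd207 at 0 CPM.

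Among the genes higher in model ganglia, Lipn stood out in control 4 at 0.0581 CPM and in model 6 at 0.232 CPM, and Il22ra1 in model 4 at 3.50 CPM, where the other model libraries held 0.380 to 1.53 CPM. Single values also stood out for Gab2 in model 2 at 49.5 CPM, Sst in model 1 at 6.36, Cox6c in model 1 at 142.6, Trpa1 in control 3 at 145.6, Arntl in control 2 at 7.54 and Fosb in control 4 at 6.32 CPM.

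For 14 of the 17 called DRG genes tested in both tissues, the model effect differed between skin and DRG in the edgeR contrast. The 17 were picked by their change in the same DRG libraries, which favours such a difference. The skin minus DRG difference in log2 change was above 0 for Gal at 3.29 and Sox11 at 3.11. It was below 0 for Sprr1a at -6.94, Lipn at -6.20, Kcnk16 at -5.46, Krtdap at -3.45, Slc6a4 at -2.86, Cd207 at -2.48, Flrt3 at -1.72, Star at -1.43, Sema6a at -1.14, Fst at -0.98, Myo10 at -0.81 and Gadd45a at -0.58.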

How the results depend on the processing

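The number of genes called higher in model DRG was 19 with 0 lower, and under the alternatives it was 125 and 14 with DESeq2, 12 higher with a minimum of 1 CPM in 6 libraries, 31 and 1 in the fit of all 24 libraries, 80 with the meningeal covariate and 6 with the replicate block; RLE, upper-quartile, unfiltered, non-robust, TPM, length-offset and control 5 with model 5 left out gave 15 to 22 higher. Leaving out 1 library gave 11 (without control 1 or control 4) to 34 (without model 6) higher, and 12 without model 3; it gave 0 to 2 lower (1 without control 3, 2 without model 6). Genes whose groups do not overlap numbered 74 higher and 29 lower; they were 146 and 11 on the TPM scale, 212 and 140 without control 5 and model 5, and 18 lower with the length offset. Leaving out 1 library, which itself makes separation easier, gave 84 to 237 higher (135 without control 1, 185 without control 5, 115 without model 1, 237 without model 6) and 35 to 112 lower (80, 47, 98 and 112 without controls 1, 2, 3 and 5, and 57, 47, 51 and 110 without models 1, 3, 4 and 6). The signed skin effect was called below the DRG effect for 1110 genes, 654 with scaling within each tissue and 669 with the block. Genes that fell in skin without rising in DRG can be among them, so this is no count of stronger DRG responses. The same-numbered DRG libraries deviated with correlations of -0.382 to -0.051 and 0 of 6 model libraries correlated best with their own number, so the numbers were not taken as pairs. At an unadjusted p under 0.05 the replicate block gave 614 higher and 347 lower, DESeq2 1379 and 783 and TPM + 1 1795 and 267.

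Signs turned for values near 0. Leaving out 1 library gave a log2 change of -0.022 to 0.074 for Gap43, -0.078 to 0.042 for Trpv1, -0.105 to 0.026 for Trpa1, -0.087 to 0.074 for Scn9a, -0.036 to 0.016 for Scn10a and -3.54 to 0.53 for Pdyn. On the TPM scale Trpv1 was 0.017, Scn9a 0.059, Scn10a 0.043 and Fdft1 0.035, and with the block Scn9a was 0.0046. Without control 5 and model 5, Adcyap1 was -0.014, Pdyn 0.78, Cacna2d1 -0.034, Il1b -0.044, Camp -0.031 and Scn10a 0.00038. The cause of these changes was not tested. Read depth limits the low genes: over the 6 control libraries Lipn has 3 counts, Gm5152 6, Cd207 29, Kcnk16 35, Krtdap 39 and Tnfrsf8 42. With the block the 6 called genes were Atf3, Sprr1a, Gpr151, Gal, Lipn and Kcnk16.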
